A study of Mesocricetus auratus with 8 samples.

Results

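The transcripts described here are 10 genes of the hypoxia-inducible factor (HIF) pathway in satellite cells (SCs), the stem cells of skeletal muscle, from Syrian hamsters (Mesocricetus auratus) before and after cold exposure. They were chosen by symbol from textbook knowledge of the pathway, not by their values, although earlier results of these data were known. They were the HIF subunits Hif1a, Epas1 and Arnt, and the oxygen-sensing hydroxylases Egln1, Egln2, Egln3 and Hif1an. The others were the ubiquitin ligase subunit Vhl and the secreted HIF targets Vegfa and Adm. All 10 symbols occurred once among the 31581 entries of the deposited table, all 10 had values, as 17590 entries did, and all 10 were among the 12506 genes tested. The HIF pathway couples gene expression to oxygen. When oxygen is ample, prolyl hydroxylases of the EGLN family mark the HIF alpha subunits, and the VHL complex ubiquitinates them for degradation. When oxygen is scarce, the alpha subunit accumulates, pairs with ARNT and drives genes of glucose uptake, glycolysis, vessel growth and the pathway's own feedback, among them Egln3. In muscle, VEGFA released by myogenic cells acts on nearby endothelium. Since alpha subunit abundance is set mostly at the level of the protein, a transcript level is not a measure of HIF activity.

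The study asked how SCs of a hibernator respond to cold. Wild-type SCs came from the hindlimb muscles of 8 to 16 week old male hamsters (Slc:Syrian), were enriched by preplating and were grown on Matrigel, so that they were proliferating primary cultures rather than cells in the muscle. In both groups the cells were kept at 37°C for 48 h and then for 24 h at 37°C in growth medium with 100 mM HEPES. Control libraries (n = 4) were made at that point, and cold libraries (n = 4) after a further 24 h at 4°C with no change of medium. For control replicates 1 to 4 the treatment labels state 3, 4, 5 and 6 days of culture, although their titles place all of them on day 3. No library kept at 37°C for the additional 24 h was analysed here, so cold and time in culture cannot be told apart. Oxygen in the medium was not among the deposited measurements. Libraries are numbered 1 to 4 in each group. The study describes the libraries as biological replicates, 4 per group. The labels do not say what a number marks or that the samples came from separate animals. The p-values therefore measure the spread between these samples, and whether that is a spread between animals is not stated.

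The libraries held 16530747 to 18533801 expected counts each. The first principal component, with 54.5% of the variance, parted replicates 1 and 2 from replicates 3 and 4, and the second, with 17.9%, parted cold from control. Myogenic markers were high, with a summed level of 2537 to 3454 TPM (transcript abundance scaled by length and library) over 10 genes in control libraries and 2240 to 2867 in cold libraries, and of these genes only Cadm2 was under 1 TPM in every library. The fibroblast markers summed to 1322 to 1875 TPM in control libraries and 1301 to 1815 in cold libraries, whereas the endothelial markers summed to no more than 5.67 TPM, with 8 of 10 genes under 1 TPM in every library. These are bulk samples, in which fewer cells of a type and less RNA per cell cannot be told apart.

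Few of the transcripts of the HIF subunits, hydroxylases and secreted targets were separated between cold and control libraries. Without a replicate block, 0 of the 10 genes passed an adjusted p of 0.05 in edgeR's quasi-likelihood test, where 0.0720% of all genes tested did so, and 0 passed the additional threshold of a log2 fold change of 1 in either direction, where 0.0400% did. Of the 10, 1 gene, Vhl, had an unadjusted p under 0.05, against 6.70% of all genes tested, and DESeq2 called 0 of the 10 without the block and 0 with it, against 1.14% and 2.85% of all genes. When replicate number was added to the model as a block, 1 of 10 (Egln3, lower in the cold) passed an adjusted p of 0.05, against 5.33% of all genes in either direction and 4.07% in the lower direction. With the fold threshold added, 0 of 10 passed in the blocked fit, against 0.848% of all genes. The estimates were lower in the cold for 5 genes and higher for 5. Their median log2 fold change was -0.0012, beside a median of 0.0071 over all genes tested, and their median absolute log2 fold change was 0.073, beside 0.069.

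The 95% intervals differed in width between genes. In both fits the interval of each of the 10 genes lay within a log2 fold change of 1 in either direction, that is, within a change of 2-fold. It lay within 0.25 on the log2 scale for 5 of 10 genes in the unblocked fit and for 6 of 10 in the blocked fit. In the unblocked fit, the widest intervals were those of Epas1, Egln3 and Adm, whose levels also varied most among the control libraries, with coefficients of variation of 31.7%, 28.7% and 26.4%. For Epas1 and Adm, with 96 to 184 and 49 to 121 expected counts per library, counting error alone came to a mean coefficient of variation of 8.89% and 12.0%.

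**Figure D1:**
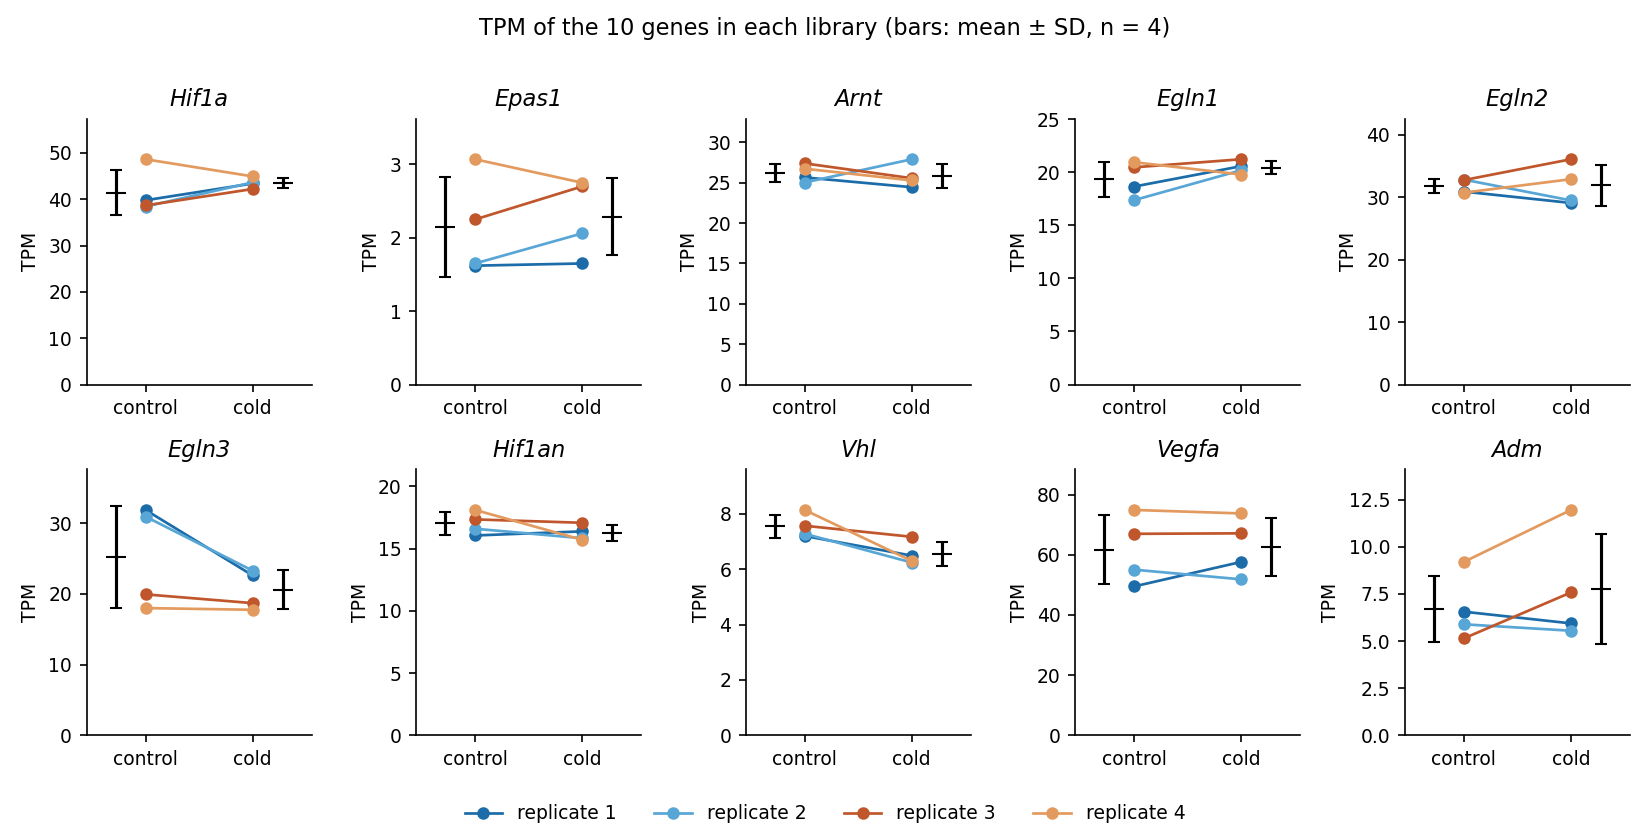
TPM (vertical axes, from 0) of the 10 genes in 4 control and 4 cold libraries. Lines join libraries of the same replicate number, and black bars give the mean ± SD of each group (n = 4). Only for Vhl do the groups not overlap, and Egln3 fell along the lines of replicates 1 and 2 but hardly along those of replicates 3 and 4.

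By TPM, which is scaled by transcript length and so can be compared between genes, the order of mean levels over the 8 libraries was Vegfa (62.1), Hif1a (42.5), Egln2 (31.8), Arnt (26.0), Egln3 (22.9), Egln1 (19.9), Hif1an (16.6), Adm (7.23), Vhl (7.05) and Epas1 (2.22). Vegfa, Hif1a, Egln2 and Arnt kept this order in 8 of 8 libraries with ranges that did not overlap. Arnt exceeded Egln3 in 6 of 8 libraries, Egln3 exceeded Egln1 in 4 of 8, and Adm exceeded Vhl in 3 of 8, so these neighbours were not separated. Egln1 exceeded Hif1an in 8 of 8 libraries although their ranges overlapped.

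Hif1a encodes the alpha subunit that is degraded in most cells at normal oxygen. Its TPM in control replicates 1 to 4 was 39.78, 38.43, 38.66 and 48.63, and in cold replicates 1 to 4 it was 43.40, 43.64, 42.21 and 44.93. The cold values all lay above control replicates 1 to 3 and below control replicate 4, so the groups overlapped, and the level was higher in the cold in 3 of 4 pairs. The control mean of 41.4 ± 4.87 TPM and the cold mean of 43.5 ± 1.12 TPM (SD, n = 4) were not separated by the exact permutation test (p = 0.486). The log2 fold change was 0.06 (SE 0.07, 95% interval -0.10 to 0.21, edgeR adjusted p = 0.999). Leaving out 1 library at a time it ran from 0.01 without control replicate 3 to 0.12 without control replicate 4 (edgeR adjusted p = 0.992 and 0.631).

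Epas1 encodes HIF-2 alpha, the other main alpha subunit, best known from endothelium. Its TPM was 1.62, 1.65, 2.25 and 3.07 in control replicates 1 to 4, and 1.65, 2.06, 2.70 and 2.75 in cold replicates 1 to 4. In both groups, replicates 3 and 4 were the higher ones, and the groups overlapped. The log2 fold change was 0.08 (SE 0.22, 95% interval -0.41 to 0.58, edgeR adjusted p = 0.999). Epas1 made up 4.87% ± 1.00 (SD, n = 4) of the summed TPM of both alpha subunits in control libraries and 4.99% ± 1.10 in cold libraries, a difference smaller than the spread (exact permutation p = 0.800, adjusted p = 0.800 over 5 shares).

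Arnt encodes the beta subunit shared by both alpha subunits and, in other settings, by the aryl hydrocarbon receptor. Its TPM was 25.65, 25.02, 27.39 and 26.73 in control libraries and 24.44, 27.90, 25.55 and 25.28 in cold libraries. The groups overlapped almost fully. The log2 fold change was -0.04 (SE 0.05, 95% interval -0.17 to 0.08, edgeR adjusted p = 0.999). Its spread within groups was 4.06% and 5.75% of the mean, beside a counting error of 2.97%.

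Among the hydroxylases, Egln1 encodes PHD2, the main oxygen sensor that marks HIF-1 alpha at normal oxygen. Its TPM was 18.65, 17.37, 20.46 and 20.94 in control libraries and 20.57, 20.19, 21.22 and 19.78 in cold libraries. The groups overlapped, with cold replicate 3 above each control library, and the log2 fold change was 0.06 (SE 0.05, 95% interval -0.06 to 0.18, edgeR adjusted p = 0.999). Egln2 encodes PHD1, which is not itself induced by hypoxia in most cells. Its TPM was 30.88, 32.80, 32.71 and 30.70 in control libraries and 29.06, 29.47, 36.05 and 32.86 in cold libraries. The cold libraries were the more spread, being lower in replicates 1 and 2 and higher in replicates 3 and 4, and the log2 fold change was -0.02 (SE 0.07, 95% interval -0.18 to 0.15, edgeR adjusted p = 0.999). It was -0.18 in replicates 1 and 2 alone (edgeR adjusted p = 0.084) and 0.13 in replicates 3 and 4 alone (edgeR adjusted p = 0.997).

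Egln3 encodes PHD3, the family member most strongly induced by hypoxia in many cells. Its TPM was 31.87, 30.93, 19.93 and 17.99 in control replicates 1 to 4, and 22.61, 23.28, 18.69 and 17.75 in cold replicates 1 to 4. In 4 of 4 pairs the cold library was the lower one, which also held for Vhl, so for 2 of 10 genes, against 10.5% of all genes tested. The drop lay in replicates 1 and 2, whose control libraries stood above all others, and the groups overlapped. The log2 ratios within pairs, from TPM, were -0.50, -0.41, -0.09 and -0.02 for replicates 1 to 4. Without the block, the log2 fold change was -0.32 (SE 0.22, 95% interval -0.81 to 0.17, edgeR adjusted p = 0.947), and means of 25.2 ± 7.24 and 20.6 ± 2.77 TPM (SD, n = 4 each) were not separated by the exact permutation test (p = 0.314). With the replicate block it was -0.29 (SE 0.08, 95% interval -0.46 to -0.12, edgeR adjusted p = 0.0405), a fold of 0.816 with an interval of 0.725 to 0.918. This call was lost without both libraries of replicate 1 (-0.20, edgeR adjusted p = 0.291) or of replicate 2 (-0.24, edgeR adjusted p = 0.294), and in DESeq2 with the same block (adjusted p = 0.236). Within replicates 1 and 2 alone the log2 fold change was -0.51 (edgeR adjusted p = 5.53e-05) and within replicates 3 and 4 alone it was -0.04 (edgeR adjusted p = 0.997). The difference between the pairs of replicates was not tested. The summed myogenic markers moved in the same libraries, from 3435 and 3454 TPM in control replicates 1 and 2 to 2636 and 2867 in the cold, and from 2670 and 2537 TPM in control replicates 3 and 4 to 2468 and 2240. This sum is carried mainly by Myog, a regulator of differentiation, which went from 1008, 1016, 449 and 480 TPM in control replicates 1 to 4 to 564, 628, 314 and 292 TPM in the cold, and by Myod1 and Des, whereas Pax7, the SC marker, was at 10.8 and 11.8 TPM in control and 12.9 and 12.7 TPM in cold replicates 1 and 2. The summed pericyte and smooth muscle markers, mainly Acta2, went from 2262 and 2066 TPM to 1496 and 1547 in replicates 1 and 2, and from 1381 and 1596 TPM to 1238 and 1324 in replicates 3 and 4. The summed Schwann cell markers, at a low level, went from 17.1 and 19.1 TPM to 14.0 and 15.2 in replicates 1 and 2. In replicates 3 and 4 they went from 14.5 and 13.5 TPM to 12.0 and 9.53. The summed fibroblast markers were at 1322 and 1339 TPM in control and at 1419 and 1301 TPM in cold replicates 1 and 2. The part of these genes in the result for Egln3 was not tested.

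**Figure D2:**
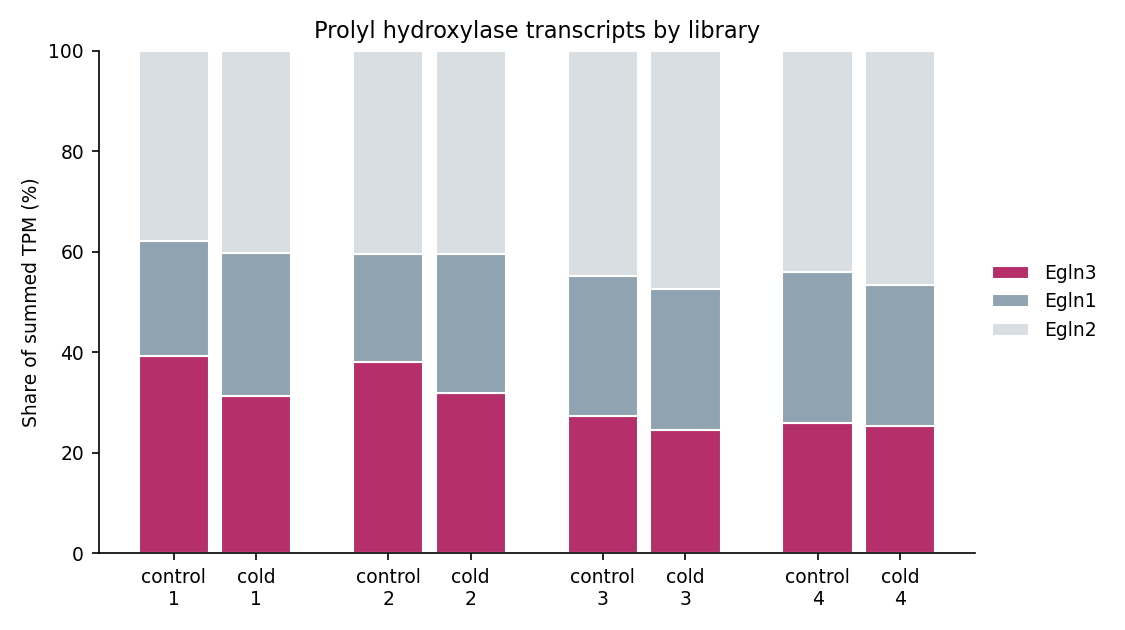
Share of each prolyl hydroxylase gene in the summed TPM of Egln1, Egln2 and Egln3 (%, vertical axis), with a stacked bar for each of the 8 libraries in pairs of the same replicate number. The Egln3 segment was 39.2% and 38.1% in control replicates 1 and 2 and between 24.6% and 31.9% in the other libraries.

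Put together, the 3 prolyl hydroxylase transcripts summed to 76.3 ± 5.88 TPM before and 72.9 ± 2.32 TPM after cold exposure (SD, n = 4 libraries, p = 0.314 in the exact permutation test). Egln3 made up 39.2%, 38.1%, 27.3% and 25.8% of this sum in control replicates 1 to 4, and 31.3%, 31.9%, 24.6% and 25.2% in cold replicates 1 to 4. In each of the 4 pairs the cold library had the lower share, with differences (cold minus control) of -7.85, -6.22, -2.66 and -0.62 percentage points in replicates 1 to 4. The groups overlapped, with means of 32.6% ± 7.02 and 28.3% ± 3.88 (exact unpaired permutation p = 0.286, adjusted p = 0.800 over 5 shares). An exact sign-flip test within pairs gave p = 0.125, the smallest that 4 pairs allow. Egln1 had a mean share of 25.6% in control and 28.0% in cold libraries, and Egln2 one of 41.8% and 43.7%, with exact permutation p-values of 0.371 and 0.514.

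Hif1an encodes FIH, the asparaginyl hydroxylase that blocks the recruitment of coactivators by the alpha subunits. Its TPM was 16.05, 16.59, 17.34 and 18.10 in control libraries and 16.38, 15.83, 17.07 and 15.70 in cold libraries. In 3 of 4 pairs the cold library was the lower one, with overlapping groups, and the log2 fold change was -0.09 (SE 0.04, 95% interval -0.18 to 0.01, edgeR adjusted p = 0.845).

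Vhl encodes the subunit that recognizes hydroxylated alpha subunits for ubiquitination. Its TPM was 7.20, 7.28, 7.57 and 8.14 in control replicates 1 to 4, and 6.49, 6.24, 7.17 and 6.30 in cold replicates 1 to 4. The highest cold library lay just under the lowest control library. Vhl was thus the 1 member of 10 whose groups did not overlap in this direction, a pattern that 2.41% of all genes tested showed, and the exact permutation p of 0.0286 is the smallest that 4 against 4 libraries can give. The means were 7.55 ± 0.426 and 6.55 ± 0.427 TPM (SD, n = 4 each), and the log2 ratios within pairs were -0.15, -0.22, -0.08 and -0.37. The log2 fold change was -0.22 (SE 0.08, 95% interval -0.40 to -0.05) and did not pass adjustment over all genes, either without the block (edgeR adjusted p = 0.579) or with it (edgeR adjusted p = 0.157). With 168 to 224 expected counts per library, the spread of Vhl within groups, 5.64% and 6.52% of the mean, was no larger than the counting error of 7.24%.

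Vegfa, the vascular endothelial growth factor that is a classical HIF target, was the most abundant of the 10 transcripts. Its TPM was 49.47, 55.02, 66.94 and 74.87 in control replicates 1 to 4, and 57.61, 51.81, 67.10 and 73.71 in cold replicates 1 to 4. The 4 libraries of replicates 3 and 4 stood above the 4 of replicates 1 and 2. The control mean of 61.6 ± 11.5 TPM and the cold mean of 62.6 ± 9.75 TPM (SD, n = 4) were not separated by the exact permutation test (p = 0.829). The log2 fold change was 0.02 (SE 0.14, 95% interval -0.30 to 0.33, edgeR adjusted p = 0.999) without the block and 0.01 (95% interval -0.08 to 0.11, edgeR adjusted p = 0.918) with it. Vegfa made up 68.1% of the summed TPM of the VEGF ligands in control and 67.6% in cold libraries (exact permutation p = 0.771).

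Adm encodes adrenomedullin, a vasodilator peptide that is strongly induced by hypoxia in many cells. Its TPM was 6.56, 5.89, 5.14 and 9.20 in control replicates 1 to 4, and 5.94, 5.55, 7.58 and 11.96 in cold replicates 1 to 4. The cold library was the lower one in replicates 1 and 2 and the higher one in replicates 3 and 4, with overlapping groups. The log2 fold change was 0.20 (SE 0.27, 95% interval -0.41 to 0.80, edgeR adjusted p = 0.999), the least precise of the 10.

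**Figure D3:**
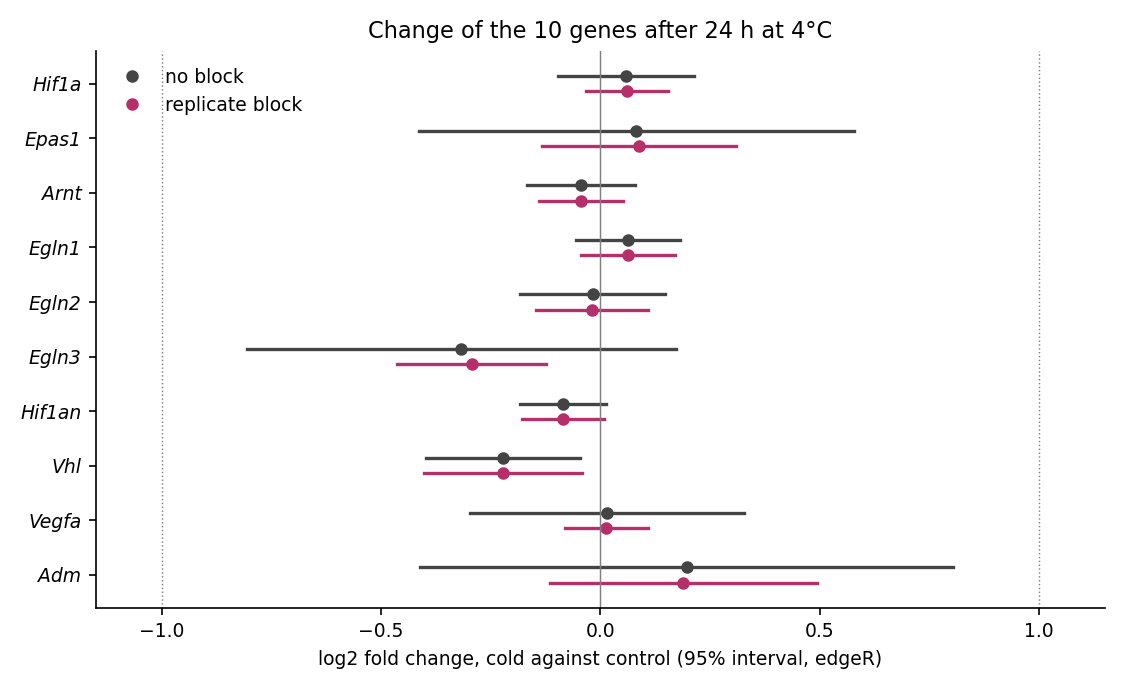
Log2 fold change of cold against control with its 95% interval (horizontal axis) for the 10 genes, in edgeR without a block (grey) and with the replicate block (magenta). Every interval lies inside the dotted lines at -1 and 1, and only Egln3 passed an adjusted p of 0.05, in the blocked fit alone.

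Several of these genes differed between replicate numbers. Tested as a term of the blocked fit, it was significant for 4 of 10 genes, Vegfa, Egln3, Epas1 and Adm, against 35.4% of all genes tested, so the members' share was near the background. The adjusted p-values in edgeR were 1.43e-05, 9.68e-05, 0.00159 and 0.00638, and Hif1a followed with 0.0618. The mean TPM of the 4 libraries of replicates 1 and 2 and of the 4 libraries of replicates 3 and 4 was 53.5 and 70.7 for Vegfa, 1.75 and 2.69 for Epas1, 27.2 and 18.6 for Egln3, and 5.99 and 8.47 for Adm. For Vegfa, Epas1 and Egln3 the libraries of replicates 1 and 2 did not overlap with those of replicates 3 and 4, whereas for Adm they did. Vegfa and Epas1 were thus high where Egln3 was low. The share of all genes with such a separation was not counted. The same split parted the libraries on the first principal component, with 54.5% of the variance. The summed fibroblast markers were also higher in replicates 3 and 4, at 1557 and 1875 TPM in control libraries against 1322 and 1339 TPM in replicates 1 and 2, although not each gene of the list was (Col1a2, with 155 and 230 TPM against 213 and 241 TPM). The summed myogenic markers were lower there in both groups, although Pax7, Myf5 and Sdc4 were on average higher there. The macrophage and leukocyte markers summed to 59.95, 60.47, 129 and 97.3 TPM in control replicates 1 to 4 and to 63.7, 56.5, 130 and 113 TPM in the cold, with the defining markers Ptprc and Adgre1 at no more than 0.03 TPM. The summed pericyte and smooth muscle markers, mainly Acta2, were lower in replicates 3 and 4, as given above, although Pdgfrb, Mcam, Myh11 and Abcc9 were on average higher there. The part of cell composition in these differences was not tested.

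When the sum of squares of log2(TPM + 0.01) was split between replicate number and condition, replicate number took 92.5% for Vegfa, 89.8% for Epas1, 79.8% for Adm and 73.2% for Egln3, and cold against control took 0.434%, 2.63%, 5.24% and 16.4%. Vhl stood at the other end, with 16.5% for replicate number and 65.4% for condition. The medians over the 10 genes were 58.3% for replicate number and 9.40% for condition, beside 62.7% and 7.51% over all genes tested. Replicate number has 3 of the 7 degrees of freedom and condition 1, so replicate number takes a larger share even where neither has an effect, and the 2 shares of a gene are not to be set against each other.

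**Figure D4:**
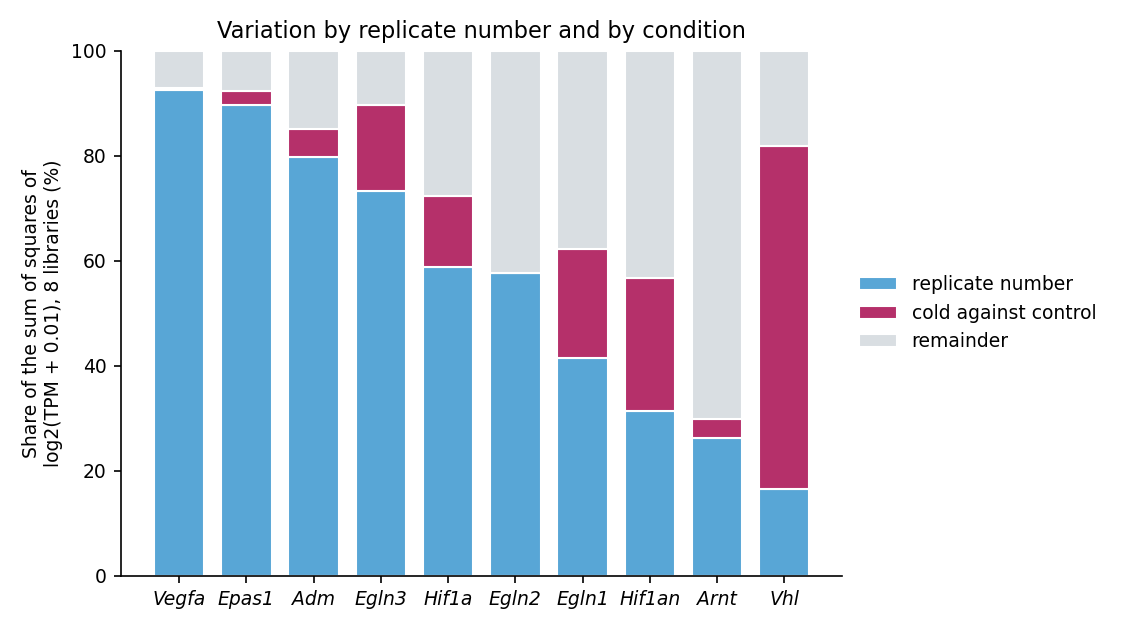
Share of the sum of squares of log2(TPM + 0.01) over 8 libraries (%, vertical axis) that went with replicate number (blue), with cold against control (magenta) and with neither (light grey), for each of the 10 genes. The magenta part is largest for Vhl (65.4%) and nearly absent for Vegfa (0.434%).

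The other genes of the pathway were counted in 6 lists, chosen by function, of 125 genes in all, of which 103 were tested. Without the block, 0 of 103 passed an adjusted p of 0.05 in edgeR, 4 had an unadjusted p under 0.05, against 6.70% of all genes, and DESeq2 called 0, against 1.14%. With the block, 6 did so (5.83%, against 5.33% of all genes tested), 4 lower and 2 higher in the cold, against 4.07% and 1.26% of all genes, so the lists stood near the background. DESeq2 with the block called 2 of the 103, Wsb1 and Ppp1r3c, against 2.85% of all genes. The median log2 fold change over the 103 genes was 0.012, beside 0.0071 over all genes tested.

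Among the partners and regulators of HIF, 2 of 20 tested genes were called with the block and both fell, with a list median of -0.0075. Usp20, a deubiquitinase that acts on HIF-1 alpha and is itself a VHL substrate, was at 6.29, 6.19, 4.70 and 5.23 TPM in control replicates 1 to 4 and at 4.70, 4.70, 4.23 and 3.93 TPM in cold replicates 1 to 4. Its blocked log2 fold change was -0.37 (SE 0.08, edgeR adjusted p = 0.00782). Wsb1, a substrate receptor of a ubiquitin ligase reported to target VHL, had means of 66.0 ± 10.1 and 57.2 ± 3.26 TPM (SD, n = 4 each) and a blocked log2 fold change of -0.21 (SE 0.05, edgeR adjusted p = 0.0133). The call for Usp20 was lost without replicate 2, with the estimate at -0.35 (edgeR adjusted p = 0.0686), and that for Wsb1 without replicate 4, with the estimate at -0.15 (edgeR adjusted p = 0.0558). Hif3a, with no more than 1 expected count in any library, and Arnt2 were too low to be tested.

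Among the glycolytic targets, 3 of 22 tested genes were called with the block, 2 lower and 1 higher, with a list median of 7.67e-05. Ppp1r3c, a subunit that targets protein phosphatase 1 to glycogen, fell the most. It was at 3.99, 2.64, 1.41 and 1.47 TPM in control replicates 1 to 4 and at 1.20, 1.00, 0.84 and 1.26 TPM in cold replicates 1 to 4, so the groups did not overlap, as in 2.41% of all genes tested in this direction and in 4 of the 103 list genes, the others being Elob, Rwdd3 and Tpi1. Its log2 fold change was -1.14 (SE 0.21, edgeR adjusted p = 0.0016) with the block and -1.18 (SE 0.37, edgeR adjusted p = 0.463) without it. The blocked call held in 4 of 4 fits that left out both libraries of 1 replicate number, with estimates from -1.43 to -0.83, but the estimate was -1.64 in replicates 1 and 2 alone (edgeR adjusted p = 7.42e-05) and -0.44 in replicates 3 and 4 alone (edgeR adjusted p = 0.997). Gpi, which converts glucose-6-phosphate to fructose-6-phosphate, fell by 0.15 on the log2 scale with the block (edgeR adjusted p = 0.0462). Pfkfb3, which makes the activator of phosphofructokinase, rose by 0.21 (edgeR adjusted p = 0.0275). Gpi kept its call in 1 of 4 such fits and Pfkfb3 in 2 of 4, both losing it without replicate 1 and without replicate 2. Slc2a1, the glucose transporter GLUT1 and a classical HIF target, named here after its values were seen, had 20.9 ± 1.68 TPM before and 20.9 ± 1.03 TPM after cold exposure (SD, n = 4 libraries).

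None of the 34 tested non-glycolytic targets was called in edgeR, with or without the block, and 0 of them had an unadjusted p under 0.05 without it. Their log2 fold changes ran from -0.26 to 0.10 with a median of -0.0011. The largest were those of Ddit4, an inhibitor of mTORC1, at -0.26 (SE 0.29), and Cxcl12, a chemokine, at -0.23 (SE 0.19), both with an edgeR adjusted p of 0.999. Epo, the hormone through which HIF was discovered, was listed at 0 in every library. Replicate number was significant for 23 of the 34 genes, against 35.4% of all genes tested.

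Of the VEGF ligands and receptors, 0 of 8 tested genes were called in either fit. In the unblocked fit, 7 of 8 estimates were higher in the cold, beside 6612 of all 12506 genes tested. Their median was 0.12. Vegfc, a ligand of lymphatic endothelium, had a log2 fold change of 0.16 (SE 0.37) and Flt4, its receptor, one of 0.15 (SE 0.32), both with an edgeR adjusted p of 0.999. Of the adrenomedullin ligands and receptors, 0 of 4 tested genes were called. Ramp1 and Ramp2, which form the receptors of this peptide family with the receptor Calcrl, had log2 fold changes of -0.54 (SE 0.82) and -0.19 (SE 0.18), with an edgeR adjusted p of 0.999 for both.

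Of 15 genes listed for the control of the Hif1a transcript or its link to mTOR signalling, 1 was called with the block (6.67%, against 5.33% of all genes tested). Zfp36, which encodes the mRNA-destabilizing protein tristetraprolin, was at 9.52, 9.86, 9.13 and 10.28 TPM in control replicates 1 to 4 and at 15.09, 23.40, 10.30 and 9.84 TPM in cold replicates 1 to 4. The rise lay mainly in replicates 1 and 2, and the difference between the pairs of replicates was not tested. Its blocked log2 fold change was 0.54 (SE 0.14, edgeR adjusted p = 0.0256), and 0.26 without replicate 2 (edgeR adjusted p = 0.395). It did not pass in DESeq2 with the block (adjusted p = 0.615).

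**Figure D5:**
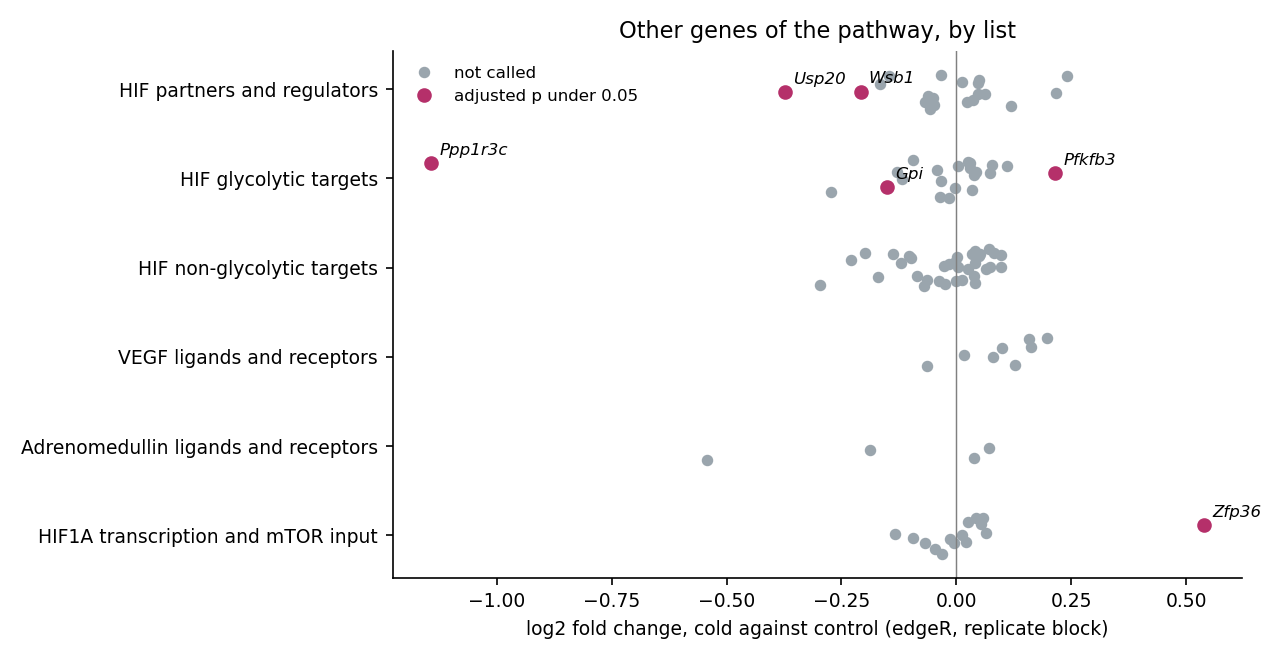
Log2 fold change of cold against control in the blocked edgeR fit (horizontal axis) for the 103 tested genes of 6 lists of the pathway, with a point for each gene, spread vertically within its list. The 6 genes with an adjusted p under 0.05 are named, and most others lie near 0, with Ppp1r3c farthest from it at -1.14.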

How the data were processed

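Syrian hamster SCs were profiled by polyA RNA-seq in 4 control and 4 cold libraries. The authors deposited 1 table, with expected counts (not normalized, between 96.4% and 96.6% whole numbers per library), TPM scaled within each library, and normalized counts, a signal that equals the count rounded up times a deposited factor of 0.924 to 1.02 and was used here only to check the counts. The submitters' processing notes name HISAT and HISAT2. The genome build, annotation and counting program are not given in the sources used here, so no coordinates were printed. All 17590 identifiers with values matched RefSeq genes. No per-sample column was left unused.

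Expected counts were rounded and tested in edgeR 4.0.16 (R 4.3.3) with filterByExpr, TMM and the quasi-likelihood F test, cold against control, with Benjamini-Hochberg adjustment over 12506 genes. Standard errors and 95% intervals came from the same fit. TPM and shares were compared by exact two-sided permutation tests over all 70 arrangements, in which p cannot fall below 0.0286. Depth limits precision, and counting error, as the square root of the count, leaves out PCR duplication, because no molecular identifiers were used. The fits were checked on counts simulated without a replicate effect, so the check does not cover the replicate differences seen here.

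Groups share replicate numbers in titles and column names. Deviations from the group means correlated across genes at 0.609 to 0.659 between same-numbered control and cold libraries, and at no more than 0.591 between others. The 0.591 was that of control replicate 2 with cold replicate 1, beside 0.609 for replicate 1, so these values hardly tell replicates 1 and 2 apart. The numbers were taken to pair the libraries, and a blocked fit of the same data was run beside the unblocked one. Alternatives were DESeq2 1.42.0 with and without the block, other scalings and filters, limma 3.58.1 on log2(TPM + 0.01, 0.1 or 1), replicates 1 and 2 or 3 and 4 alone, and leaving out each library. The test of the replicate term, the sign-flip test of shares within pairs and blocked fits without both libraries of a number were chosen after seeing the data. Members and lists were chosen with earlier results of these data known. Named list genes are those with an adjusted p under 0.05 in either fit, up to 6 per list, and otherwise the 2 with the largest absolute log2 fold change, leaving out genes under 1 mean TPM in both groups. Of the listed genes, Crebbp, Pfkp, Ldha, Kdm4c, Trf, Cox4i2, Adm5, Calca, Calcb and Gpr182 were not analysed here. The 7 marker lists cover myogenic, fibroblast, endothelial, leukocyte, mural, Schwann and adipocyte genes.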

Additional observations from a re-analysis of the deposited data

Results flagged for a closer look

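Of the 20 groups of 4 values formed by the 10 genes and 2 conditions, 1 held a library far from the others, as about 1 in 20 does by chance. Hif1a in control replicate 4 was at 48.63 TPM, and its gap to the next control library was 0.868 of the range of the control group.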

How the results depend on the processing

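Without the block, edgeR called 5 genes at both thresholds and 9 without the fold threshold. The counts were 66 and 142 in DESeq2, 86 and 357 in DESeq2 with the replicate block, 106 and 667 in edgeR with the replicate block, 3 and 4 with a mean of at least 10 counts in each group, 15 and 25 for every gene with at least 1 count, and 8 and 14 with library totals. In limma they were 3 and 4 with each pseudocount, and 5 without the fold threshold and the filter. Replicates 1 and 2 alone gave 183 and 1442, and replicates 3 and 4 alone 28 and 50. Leaving out 1 library gave 0 to 34 and 0 to 46, both highest without control replicate 3. Of the 10 HIF genes, 0 were called except Egln3, 1 gene, with the replicate block and in replicates 1 and 2 alone. Of the 103 list genes, 6 were called with the replicate block, 2 in DESeq2 with it and 16 in replicates 1 and 2 alone. Without both libraries of 1 replicate number, the blocked fit called 356 to 927 genes and 0 to 1 HIF gene, with 394 and 0 without replicate 1 and 356 and 0 without replicate 2. The block changed no other call among the 10 HIF genes.

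Hif1a, Arnt, Egln3, Hif1an and Vhl kept the sign of their log2 fold change in 21 of 21 alternatives, with -0.51 to -0.04 for Egln3 and -0.26 to -0.18 for Vhl. The others turned in some, always without a call. Leaving out 1 library gave -0.021 to 0.28 for Epas1 (below 0 in 3 fits), -0.074 to 0.020 for Egln2 (above 0 in 3), -0.081 to 0.12 for Vegfa (below 0 in 4) and -0.088 to 0.37 for Adm (below 0 without cold replicate 4). Replicates 3 and 4 alone gave -3.49e-05 for Egln1 and 0.13 for Egln2, and replicates 1 and 2 alone gave -0.18 for Egln2, -0.015 for Vegfa and -0.16 for Adm. With the block and without both libraries of a number, Egln2 ran from -0.073 to 0.034 (0.017 without replicate 1) and Vegfa from -0.0094 to 0.034 (-0.0044 without replicate 1). Leaving out 1 library, the change of the Egln3 share ran from -6.59 (without control replicate 4) to -2.15 percentage points (without control replicate 1), that of Egln1 from 1.06 to 3.94 and that of Egln2 from 0.60 to 3.04, and that of the Epas1 share from -0.22 to 0.56 percentage points and that of the Vegfa share from -1.27 to 0.27, and from expected counts the latter was -1.34. The cause of these turns was not tested. Depth limited Epas1, Adm and Vhl the most, at no more than 224 counts per library.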

Other observations

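Of the 8 tested VEGF ligands and receptors other than Vegfa, 5 had a significant replicate term in edgeR, against 35.4% of all genes tested. The 2 with the smallest p are given here, chosen after their values were seen. Vegfc was at 3.67, 3.48, 7.03 and 9.25 TPM in control replicates 1 to 4 and at 4.28, 3.82, 8.40 and 9.82 TPM in cold replicates 1 to 4, and the test of the replicate term gave an edgeR adjusted p of 7.59e-09. Flt4, a receptor known from lymphatic endothelium, was at 3.93, 5.26, 9.78 and 9.90 TPM in control and at 5.14, 5.97, 9.49 and 11.56 TPM in cold libraries (edgeR adjusted p of the replicate term 2.29e-08). Both were thus higher in replicates 3 and 4, as Vegfa and Epas1 were. Cold against control, Vegfc and Flt4 had blocked log2 fold changes of 0.16 and 0.16 and were not called (edgeR adjusted p = 0.229 and 0.198). The summed endothelial markers, mostly Cdh5 and Tek, were low but also higher in replicates 3 and 4, at 3.04, 3.42, 4.01 and 5.12 TPM in control replicates 1 to 4 and at 3.38, 3.28, 3.85 and 5.67 TPM in cold replicates 1 to 4. Of the 3 endothelial markers tested, 1 had a significant replicate term, and Emcn was lower in control replicates 3 and 4. Their part in these differences was not tested.

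Ramp1, a receptor partner of the adrenomedullin family, ran the other way, with 9.03, 7.57, 1.50 and 0.96 TPM in control replicates 1 to 4 and 6.46, 4.72, 1.14 and 0.85 TPM in cold replicates 1 to 4 (edgeR adjusted p of the replicate term 1.94e-07). In 4 of 4 pairs the cold library was the lower one, as for Egln3 and for 10.5% of all genes tested. The difference did not pass with the block (log2 fold change -0.54, SE 0.20, edgeR adjusted p = 0.133).

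Ddit4, another HIF target and an mTORC1 inhibitor, was lower in the cold in replicates 1 and 2, at 13.77 and 14.60 TPM in control and 8.30 and 9.80 TPM in cold libraries. In replicates 3 and 4 it was at 18.32 and 23.05 TPM in control and 18.68 and 22.02 TPM in cold libraries, and the blocked log2 fold change did not pass (-0.30, SE 0.11, edgeR adjusted p = 0.135). The difference between these pairs of replicates was not tested.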
